A study of Mus musculus with 31 samples.

Results

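The Myc network examined here was 7 genes, taken by symbol from the 23509 genes counted in each mouse kidney: the activators Myc and Mycn, their partner Max, and the antagonists Mxd1, Mxd4, Mxi1 and Mnt. All 7 passed the filter on low counts, which kept 15185 genes. RNA-seq of whole kidney was available for 31 male mice harvested at 30 weeks of age, in 3 groups. The first held 12 Pcy/CD1 mice given subcutaneous PBS, the second 14 Pcy/CD1 mice given subcutaneous RGLS4326 at 25 mg kg-1 monthly, and the third 5 untreated, age-matched wild-type CD1 mice. Dosing of both Pcy/CD1 groups started at 5 weeks of age and lasted 25 weeks; for PBS the labels give a weekly schedule in one field and a monthly one in another. Pcy is an inherited mutation that makes cysts grow slowly along the nephron, and the wild-type mice had no PBS injections, so genotype and injection cannot be told apart between them and the PBS group. RGLS4326 is a short, chemically modified oligonucleotide that pairs with the seed of miR-17 and its relatives.

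Myc and Mycn are basic helix-loop-helix leucine zipper transcription factors that bind DNA as dimers with Max, mostly at the E-box, and raise transcription of genes for ribosome production, nucleotide synthesis and cell division. Mxd1, Mxd4, Mxi1 and Mnt compete for the same Max and the same E-boxes and recruit Sin3 and histone deacetylase complexes that repress transcription. Myc is known to activate the host gene of the miR-17 cluster, and raised Myc in the mouse renal tubule is known to cause cysts. The comparisons therefore asked how the members differed between cystic and normal kidney, and whether inhibition of miR-17 moved any of them.

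The 7 genes lie on 6 chromosomes of GRCm38. Myc spans 61985391 to 61990374 on the plus strand of chromosome 15, Mycn 12936093 to 12941914 and Max 76937269 to 76962201 on the minus strand of chromosome 12, and Mxd1 86647042 to 86669161 on the minus strand of chromosome 6. Mxd4 spans 34173883 to 34187720 on the minus strand of chromosome 5, Mxi1 53310518 to 53375810 on the plus strand of chromosome 19 and Mnt 74830920 to 74845725 on the plus strand of chromosome 11.

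Sequences that RGLS4326 could act through are shown first, because they separate the members into those with and without the miR-17 seed match searched below. Of the mature mouse miRNAs in RefSeq (GRCm38.p6), 7 carry the miR-17 seed at bases 2 to 8, here in capitals, and 4 of them are printed 5′ to 3′.
miR-17-5p: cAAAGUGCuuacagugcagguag
miR-20a-5p: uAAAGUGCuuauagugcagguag
miR-93-5p: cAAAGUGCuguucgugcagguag
miR-106b-5p: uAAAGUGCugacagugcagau
The other 3 were miR-20b-5p, miR-106a-5p and miR-6383.

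The longest annotated 3′ untranslated region of 3 members held 1 match each to this seed, GCACTTT on the transcript strand, in the last exon. Each is given with its flanking bases and the match in capitals.
Mnt, exon 6, chr11:74844638-74844644: aacctcccaggGCACTTTattattattatt
Mxi1, exon 6, chr19:53375081-53375087: cttatgtgcatGCACTTTgggcatcattct
Mycn, exon 3, minus strand of chr12:12936139-12936145: tgcaccttagaGCACTTTgaaatacctcat
The Mnt match was followed by an A, which makes it an 8mer, and the other 2 were 7mers. Myc, Max, Mxd1 and Mxd4 held no such letters in this region. Other kinds of miR-17 site and other annotated 3′ untranslated regions were not searched. Among 21081 genes with an annotated 3′ untranslated region, 12.2% held the match.

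The letters CACGTG, the E-box that Myc-Max dimers prefer, were sought in RefSeq promoter windows of GRCm38.p6 that run from 250 bases before a start site to 50 after it. The motif reads the same on both strands. The 6 members other than Myc had 8 windows, 3 of them of Mxi1, and 3 of the 8 windows, of 3 members, held the motif once. It is shown in capitals on the gene's strand.
Max, 3 bases before the start, minus strand of chr12:76962234-76962263: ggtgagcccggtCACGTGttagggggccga
Mnt, 123 bases before the start, plus strand of chr11:74830789-74830818: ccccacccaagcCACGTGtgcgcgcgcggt
Mxd4, 219 bases before the start, minus strand of chr5:34187912-34187941: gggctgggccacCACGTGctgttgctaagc
Over all 32851 windows 7.15% held the motif, and 7.24% of the first windows of 27025 genes did. These matches are a description of the letters; binding was not measured.

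Counts on genes ranged from 14892524 to 27459962 per mouse. Values are given below as CPM, a gene's counts relative to the mouse's counts on the 15185 genes that passed the filter, scaled with edgeR's TMM factors. Differences were tested with edgeR's quasi-likelihood F test, with p-values adjusted over all 15185 genes by the Benjamini-Hochberg method and called under 0.05. The library labelled RGLS4326 mouse 9 stood apart from its group. Its summed tubular injury markers (Lcn2 and Havcr1) read 13.1 CPM, against 158 to 717 CPM in the other RGLS4326 mice and 5.90 to 25.8 CPM in wild type. Its 12 nephron markers summed to 20460 CPM, against 12510 to 17820 CPM in the other 13 and 20230 to 22660 CPM in wild type, so it lay inside the wild-type range on both. It also lay inside that range on the sums of leukocyte markers (170 CPM, wild type 167 to 192 CPM), proliferation markers, Myc cofactors, Myc protein turnover genes, Myc-activated genes and miR-17 host genes. It lay outside on its fibroblast markers (264 CPM, wild type 165 to 233 CPM), the 6 other Max and Mlx genes (433 CPM, 460 to 487 CPM), its Myc-repressed genes (1422 CPM, 1970 to 2826 CPM) and its liver markers (458 CPM, 23.9 to 253 CPM). On some sums mouse 9 also lay inside the range of the other 13 RGLS4326 mice. These were proliferation markers (91.5 CPM, others 76.4 to 125.9 CPM) and Myc protein turnover genes (704 CPM, 585.5 to 715.5 CPM). They also were miR-17 host genes (29.1 CPM, 28.9 to 48.2 CPM) and the 6 other Max and Mlx genes (433 CPM, 346 to 458 CPM). Whether its label is right was not tested. Wild-type mice 3 and 4 were unusually alike, with a chi-square per gene of 2.69 where sampling noise gives about 1 and the other wild-type pairs gave 16.1 or more. They were kept as separate mice, as labelled. Where leaving out mouse 9, or wild-type mouse 3 or 4, changed the call of a member, this is given below. List calls between RGLS4326 and PBS, the correlations and the levels per length were repeated without mouse 9. List genes against wild type and the ratios of members were not repeated without single mice.

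Myc differed most between cystic and normal kidney, and it was the 1 member whose groups did not overlap, as was so for 42.2% of all genes tested (20.3% with every PBS mouse above wild type and 21.9% with every one below). Its transcript, which encodes the growth-promoting factor, read 4.42, 3.68, 4.97, 3.81 and 5.24 CPM in wild-type mice 1 to 5. In the PBS group it ranged from 15.6 to 32.5 CPM with a median of 24.1 CPM. Every PBS kidney lay above every wild-type kidney, with no overlap. The mean ± SD was 4.43 ± 0.686 CPM over the 5 wild-type mice and 23.1 ± 6.32 CPM over the 12 PBS mice, a 5.23-fold higher level (log2 fold change 2.39, SE 0.30, 95% interval 1.78 to 2.99, adjusted p = 5.38e-08 by edgeR). The lowest mouse still had 62 reads on Myc, and the highest 804.

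**Figure D1:**
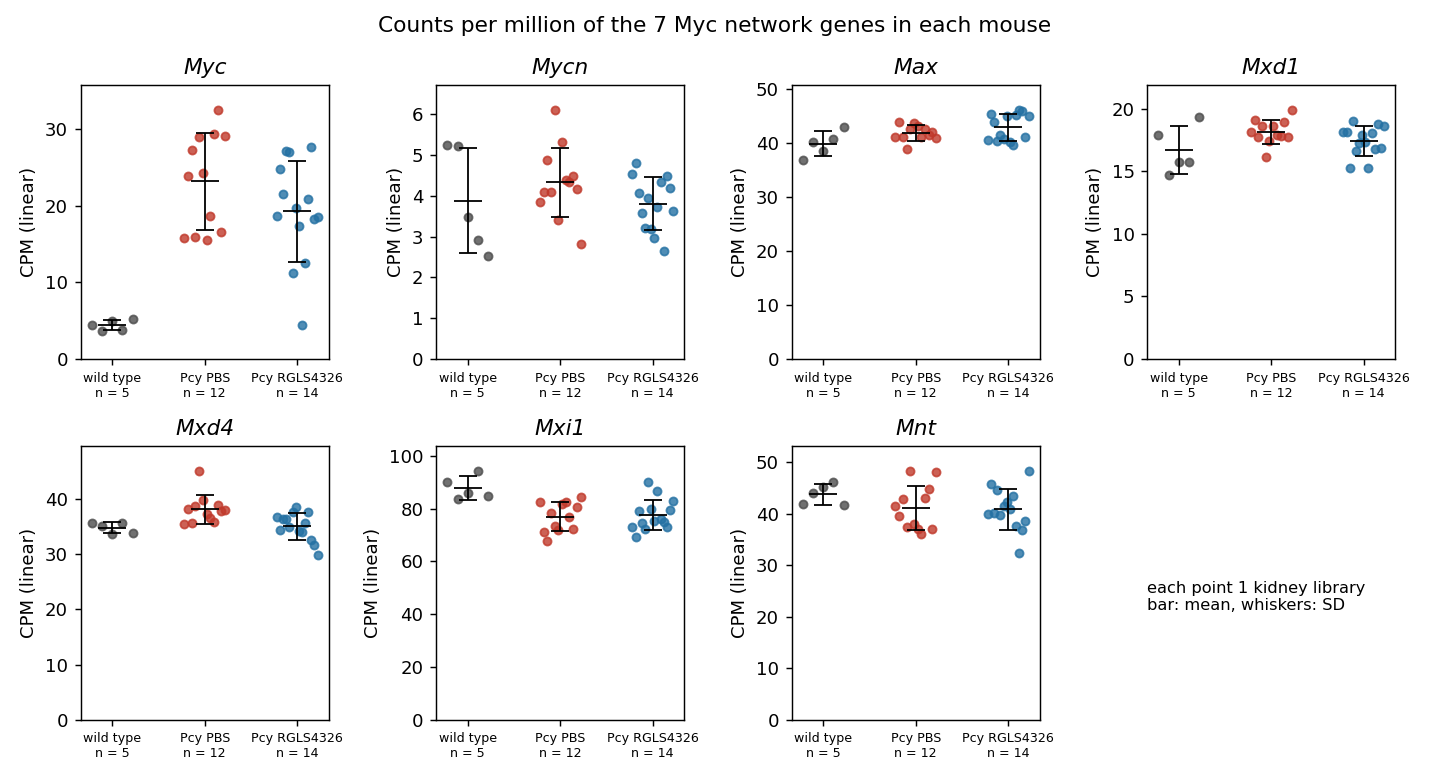
CPM (linear axes from 0) of the 7 Myc network genes, 1 panel per gene and 1 point per kidney, with the group mean as a bar and the SD as whiskers for 5 wild-type, 12 PBS and 14 RGLS4326 mice. Myc separates the PBS mice (15.6 to 32.5 CPM) from the wild-type mice (3.68 to 5.24 CPM), whereas the group ranges of the other 6 genes overlap.

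Within the sets of libraries whose numbers restart in the deposited library names, Myc was higher by log2 2.35 in set 1 (adjusted p = 0.00214) and by 2.32 in set 2 (adjusted p = 0.000979, both by edgeR), with 2 wild-type and 4 PBS mice in each. Set 3 held 1 wild-type mouse and was not tested alone. In whole kidney, a higher share of Myc-expressing cells and more Myc RNA per cell cannot be told apart. Markers of other cells moved with the disease too: 9 of 9 leukocyte markers and 6 of 8 fibroblast markers were called higher, and none lower, where 37.7% of all genes were higher, with no marker at 0 in every mouse. Summed leukocyte markers read 167 to 192 CPM in wild type and 340 to 554 CPM with PBS, and summed fibroblast markers read 165 to 233 CPM and 551 to 1178 CPM. Among leukocyte genes the T cell genes Cd8a and Cd3e rose by 3.28 and 2.14 on the log2 scale and the macrophage genes Lyz2, Cd68 and Csf1r by 2.53, 2.21 and 0.27, and among fibroblast genes the collagens Col1a1, Col3a1 and Col1a2 rose by 3.37, 3.21 and 2.55 and Acta2 by 1.28. None of these 9 genes was called with RGLS4326 against PBS, where their log2 fold changes, with mouse 9 included, lay between -0.33 and -0.087. Nephron markers went the other way, with 7 of 12 lower and 2 higher, the collecting duct water channels Aqp2 and Aqp3, and none at 0 in every mouse. The part of these cells in the Myc values was not tested.

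Of the 7 members, 3 were called between PBS and wild type, 2 higher and 1 lower, where 74.3% of all genes tested were called, 37.7% higher and 36.6% lower. With an absolute log2 fold change over 0.5 as well, 1 member remained, Myc, against 42.4% of all genes. The median log2 fold change of the members was 0.12, beside 0.010 over all genes.

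Max, the shared dimer partner of the other members, was not called. It read 36.8, 40.2, 38.5, 40.8 and 43.0 CPM in wild-type mice 1 to 5 and ranged from 38.8 to 43.9 CPM with PBS (median 41.8 CPM), so the ranges overlapped. The log2 fold change was 0.071 (SE 0.042, 95% interval -0.016 to 0.16, adjusted p = 0.128 by edgeR). It passed at 0.096 with only the 2 groups compared (adjusted p = 0.0433) and at 0.19 with upper-quartile scaling (adjusted p = 0.000818), a scaling that shifted the median of all genes to 0.13. It also passed without wild-type mouse 5 (0.10, adjusted p = 0.0464).

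Mycn, the paralogue best known from the embryonic kidney and from neuroblastoma, had the lowest mean of the 7 in every group, although its wild-type range overlapped that of Myc. In wild-type mice 1 to 5 it read 5.25, 5.23, 3.49, 2.91 and 2.53 CPM, and with PBS it ranged from 2.83 to 6.11 CPM with a median of 4.25 CPM. The groups overlapped almost wholly, and the difference did not pass (log2 fold change 0.16, SE 0.16, 95% interval -0.18 to 0.49, adjusted p = 0.383 by edgeR). Mycn spread more between mice than the antagonists did, with a coefficient of variation of 33.1% in wild type, and rested on 42 to 144 reads per mouse in these 2 groups.

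Among the antagonists, Mxd4 rose and Mxi1 fell, each by a small amount. Mxd4 read 35.7, 35.2, 33.7, 35.6 and 33.8 CPM in wild type and 35.5 to 45.1 CPM with PBS (median 37.9 CPM). Of the 12 PBS mice, 10 lay above all wild-type mice and 2 lay among them. The rise was 1.10-fold (log2 fold change 0.13, SE 0.052, adjusted p = 0.0242 by edgeR). The call was lost without wild-type mouse 3 (adjusted p = 0.0539) or without wild-type mouse 5 (adjusted p = 0.0530), with log2 fold changes of 0.12 in both.

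Mxi1, the most abundant member of wild-type kidney, read 90.1, 83.6, 85.8, 94.4 and 84.7 CPM there. With PBS it ranged from 67.6 to 84.2 CPM around a median of 77.5 CPM. Of the 12 PBS mice, 11 lay below the lowest wild-type mouse. Mxi1 was 1.14-fold lower (log2 fold change -0.19, SE 0.054, 95% interval -0.30 to -0.079, adjusted p = 0.00247 by edgeR). This change depended on the scaling: with upper-quartile scaling Mxi1 was at -0.071 (adjusted p = 0.177), about as far below the shifted median as before.

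Mxd1 and Mnt were not called. Mxd1 read 17.9, 14.7, 15.7, 15.7 and 19.3 CPM in wild type and 16.2 to 19.9 CPM with PBS, with 11 of 12 PBS mice inside the wild-type range (log2 fold change 0.12, SE 0.059, adjusted p = 0.0635 by edgeR). Like Max, it passed with only the 2 groups compared (0.15, adjusted p = 0.0472) and with upper-quartile scaling (0.24, adjusted p = 0.00106), and it passed without wild-type mouse 1 or 5 or PBS mouse 5 (adjusted p = 0.0357, 0.00887 and 0.0355). Mnt read 41.9, 44.0, 45.3, 46.3 and 41.7 CPM in wild type and 36.1 to 48.4 CPM with PBS. There 7 PBS mice lay below all wild-type mice and 2 above them, and the log2 fold change was -0.089 (SE 0.072, 95% interval -0.24 to 0.059, adjusted p = 0.264 by edgeR).

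**Figure D2:**
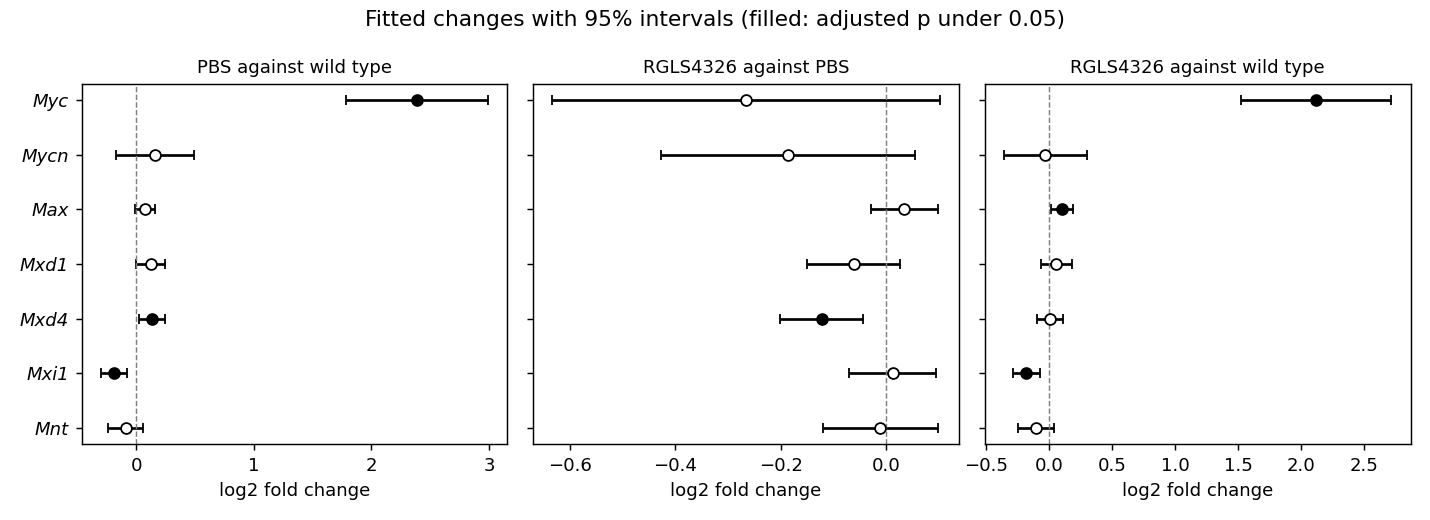
Fitted log2 fold changes of the 7 members (points) with 95% intervals (bars) in the 3 comparisons, filled where the adjusted p was under 0.05; the horizontal scales differ between panels. Myc stands at 2.39 and 2.12 in the comparisons with wild type, while the other 6 members stay between -0.19 and 0.16 in all 3.

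On a scale per length, meant for comparing genes with each other, Myc changed its place among the members. CPM per kilobase of annotated exon was used, with the length taken over all annotated exons of a gene. This length was 2717 bases for Myc and 8483 for Mxd4. Which of these exons the kidney uses was not tested. In wild type Mxi1 (12.9) and Max (11.1) led, Mnt (9.47) and Mxd4 (4.10) followed, and Mxd1 (2.36), Myc (1.63) and Mycn (1.18) were lowest. The wild-type ranges of Mxi1 and Max, of Max and Mnt, and of Mxd1 and Myc did not overlap, whereas those of Myc and Mycn did. With PBS the order was Max (11.6), Mxi1 (11.3), Mnt (8.90), Myc (8.52), Mxd4 (4.49), Mxd1 (2.57) and Mycn (1.31). Here Max and Mxi1 overlapped, and so did Mnt and Myc, but every PBS mouse had more Myc (5.73 to 11.9) than any had Mxd4 (4.19 to 5.32). The order of Myc and Mxd4 rested on the length used. In CPM every PBS mouse had more Mxd4 (35.5 to 45.1) than any had Myc (15.6 to 32.5). With RGLS4326 the order was the same as with PBS, and Myc (7.08) spanned 1.62 to 10.1, which overlapped Mxd4 (3.52 to 4.55). Mouse 9 alone set the lower end: without it Myc averaged 7.50 and spanned 4.10 to 10.1, which still overlapped Mxd4, and the order was the same.

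**Figure D3:**
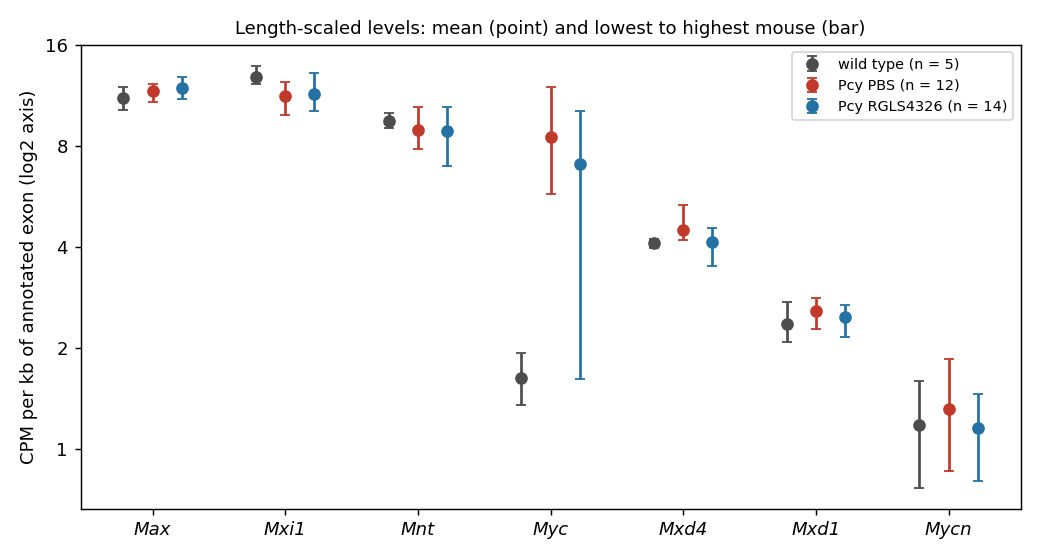
CPM per kilobase of annotated exon (log2 axis) of the 7 members, with the mean of each group as a point and the lowest to highest mouse as a bar. Myc moves from 1.63 in wild type to 8.52 with PBS and 7.08 with RGLS4326, and the other members keep similar levels in the 3 groups.

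Written as a ratio on the same scale, Myc over Max was 0.147 ± 0.0231 (mean ± SD) in the 5 wild-type mice, 0.732 ± 0.198 in the 12 PBS mice and 0.592 ± 0.201 in the 14 RGLS4326 mice. Myc over the summed antagonists was 0.0567 ± 0.00959, 0.312 ± 0.0818 and 0.267 ± 0.0959 in the same order. The highest wild-type ratio to Max was 0.171 and the lowest PBS ratio 0.479, so these groups did not overlap. Myc made up 58.6% of the Myc and Mycn transcripts in wild type and 85.9% with PBS. All of these are ratios of RNA, and protein was not measured.

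Myc was not called between RGLS4326 and PBS. In treated mice it ranged from 4.40 to 27.6 CPM around a median of 19.1 CPM, with a mean of 19.2 ± 6.59 CPM (SD, n = 14). Of the 14 treated mice, 11 lay within the PBS range and 3 below it. The lowest was mouse 9 at 4.40 CPM, inside the wild-type range, and the next lowest read 11.1 CPM. Myc was 1.20-fold lower than with PBS, which did not pass (log2 fold change -0.27, SE 0.18, 95% interval -0.63 to 0.10, adjusted p = 0.280 by edgeR). Without mouse 9 the log2 fold change was -0.18 (adjusted p = 0.372). The library sets gave 0.15 in set 1, -0.46 in set 2 and -0.45 in set 3, none of which passed (adjusted p = 0.9998, 0.510 and 0.271 by edgeR). The direction was thus not the same in every set. Set 2 holds mouse 9, at 4.40 CPM, and was not fitted without that mouse.

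Of the 7 members, 1 was called between RGLS4326 and PBS, where 15.8% of all genes were called, 9.15% higher and 6.66% lower, and 0 passed when a log2 fold change over 0.5 was also asked, against 2.15% of all genes. It was Mxd4, an antagonist associated with cells that leave the cell cycle. In treated mice Mxd4 ranged from 29.8 to 38.6 CPM around a median of 35.2 CPM, and 7 of 14 lay below all 12 PBS mice. The mean was 35.0 ± 2.47 CPM against 38.1 ± 2.59 CPM with PBS, 1.09-fold lower (log2 fold change -0.12, SE 0.038, 95% interval -0.20 to -0.044, adjusted p = 0.0349 by edgeR). Without mouse 9 it was -0.12 with an adjusted p of 0.0531, and the call was also lost without PBS mouse 2, 5 or 10 or RGLS4326 mouse 8 or 13 (adjusted p = 0.0533 to 0.0736). The PBS mice were shared with the comparison to wild type, in which Mxd4 was higher with PBS. Mxd4 held no GCACTTT match in its longest annotated 3′ untranslated region.

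The 3 members with a miR-17 match were not called in the treatment comparison. Mnt, with the 8mer, ranged from 32.3 to 48.3 CPM with RGLS4326, against 36.1 to 48.4 CPM with PBS (log2 fold change -0.010, SE 0.053, 95% interval -0.12 to 0.099, adjusted p = 0.905 by edgeR). Mxi1 ranged from 69.4 to 90.0 CPM and its log2 fold change was 0.013 (SE 0.041, 95% interval -0.070 to 0.096, adjusted p = 0.830). Mycn ranged from 2.65 to 4.82 CPM and its log2 fold change was -0.19 (SE 0.12, 95% interval -0.43 to 0.056, adjusted p = 0.251). For Mnt and Mxi1 the intervals end below a rise of 0.1 on the log2 scale. These are steady-state RNA levels of whole kidney, so changes in translation or in a single cell type were not measured.

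Max and Mxd1 were not called with treatment either. Max ranged from 39.6 to 46.1 CPM, with 6 of 14 treated mice above all PBS mice (log2 fold change 0.035, SE 0.031, adjusted p = 0.409 by edgeR). Mxd1 ranged from 15.2 to 19.0 CPM, with 12 of 14 mice inside the PBS range (log2 fold change -0.061, SE 0.043, adjusted p = 0.306 by edgeR).

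Myc in treated kidneys was 4.35-fold above wild type (log2 fold change 2.12, SE 0.29, adjusted p = 8.54e-07 by edgeR), and 13 of 14 treated mice lay above all wild-type mice, with mouse 9 as the exception. Without mouse 9 the log2 fold change was 2.21 (adjusted p = 2.17e-09). Within library sets it was 2.52 in set 1 (adjusted p = 0.00018) and 1.88 in set 2, which holds mouse 9 and did not pass (adjusted p = 0.119, both by edgeR). In this comparison 3 of 7 members were called, 2 higher and 1 lower, where 64.9% of all genes were, 32.5% higher and 32.4% lower; Myc was the 1 member also past 0.5, as 31.5% of all genes were. Besides Myc, Mxi1 was lower by log2 fold change -0.18 (SE 0.053, adjusted p = 0.00472), with 12 of 14 mice below the wild-type range. With upper-quartile scaling Mxi1 was at -0.087 here and was not called (adjusted p = 0.102). Max was higher by 0.11 (SE 0.042, adjusted p = 0.0259, both by edgeR), with 7 of 14 mice above the wild-type range. The Max call was lost without wild-type mouse 1 (adjusted p = 0.106) or mouse 3 (adjusted p = 0.0666). Mxd4 was level with wild type at 0.010 (SE 0.051, 95% interval -0.095 to 0.11). The treated mice are the same ones in both of these comparisons.

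The host genes of the miR-17 family were examined next, since Myc binds upstream of the cluster. Mir17hg carries miR-17 and miR-20a, and the intron of Mcm7, a subunit of the replicative helicase, carries miR-93 and miR-106b. Mir17hg was not called in PBS kidney. It read 4.04 ± 0.657 CPM in wild type and 4.34 ± 0.715 CPM with PBS (log2 fold change 0.11, adjusted p = 0.444 by edgeR). Kis2, which carries miR-106a and miR-20b, did not pass the filter on low counts. With RGLS4326 Mir17hg read 5.08 ± 0.745 CPM, not called against PBS (0.23, adjusted p = 0.0718) and called against wild type (0.33, adjusted p = 0.0188). Mcm7 rose from 24.5 ± 1.08 to 38.4 ± 5.60 CPM in PBS kidney (0.65, adjusted p = 2.99e-06) and fell by 0.25 on the log2 scale with RGLS4326 (adjusted p = 0.0283, all by edgeR). The Mcm7 call with RGLS4326 held without mouse 9. The libraries were made from polyadenylated RNA, so mature miRNAs were not counted.

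Across the mice of each Pcy/CD1 group, Myc was higher where the tubular injury marker Lcn2 was higher. A total of 8 correlations were computed on log2(CPM + 1) values, with two-sided permutation tests adjusted over the 8. With Lcn2, which encodes neutrophil gelatinase-associated lipocalin, Pearson's r was 0.831 (adjusted p = 0.00296) and Spearman's rho 0.811 (adjusted p = 0.00728) over 12 PBS mice. Over 14 RGLS4326 mice r was 0.902 (adjusted p = 0.00315) and rho 0.727 (adjusted p = 0.0114) by permutation, and without mouse 9 r was 0.662 (adjusted p = 0.0438). With the 2 mice farthest from the Lcn2 median left out, r was 0.760 and 0.717 in the PBS and RGLS4326 groups (adjusted p = 0.0316 for both by permutation), whereas rho was 0.758 and 0.608 and no longer passed (permutation adjusted p = 0.0628 and 0.0828). With the means of the library sets subtracted, r was 0.801 and 0.887.

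With Mki67, a marker of dividing cells, r was 0.894 and rho 0.776 over the 14 treated mice (permutation adjusted p = 0.00296 and 0.00728), and r was 0.683 without mouse 9 (permutation adjusted p = 0.0308). After leaving out the 2 mice farthest from the Mki67 median r was 0.620, which no longer passed (permutation adjusted p = 0.0509), and rho was 0.643, which no longer passed either (permutation adjusted p = 0.0749). In the PBS group r was 0.615 and rho 0.615 (permutation adjusted p = 0.0507 and 0.0599), and without the 2 farthest mice r was 0.462 (permutation adjusted p = 0.189). With Mcm7, r was 0.598 with PBS and 0.593 with RGLS4326 (permutation adjusted p = 0.0507 for both), and rho was 0.510 and 0.530 (permutation adjusted p = 0.108 and 0.0741). Without the 2 farthest mice these r values were 0.455 and 0.741, and without mouse 9 the RGLS4326 value was 0.416 (permutation adjusted p = 0.216). With Mir17hg, r was -0.092 with PBS and 0.520 with RGLS4326 (permutation adjusted p = 0.759 and 0.0507), and rho was -0.427 and 0.587 (permutation adjusted p = 0.167 and 0.0599). Without the 2 farthest mice r became -0.708 with PBS (permutation adjusted p = 0.0316) and 0.534 with RGLS4326, so the PBS value rested on which mice were included. The RGLS4326 value was 0.359 without mouse 9 (permutation adjusted p = 0.260) and 0.372 with the means of the library sets subtracted (permutation adjusted p = 0.185).

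**Figure D4:**
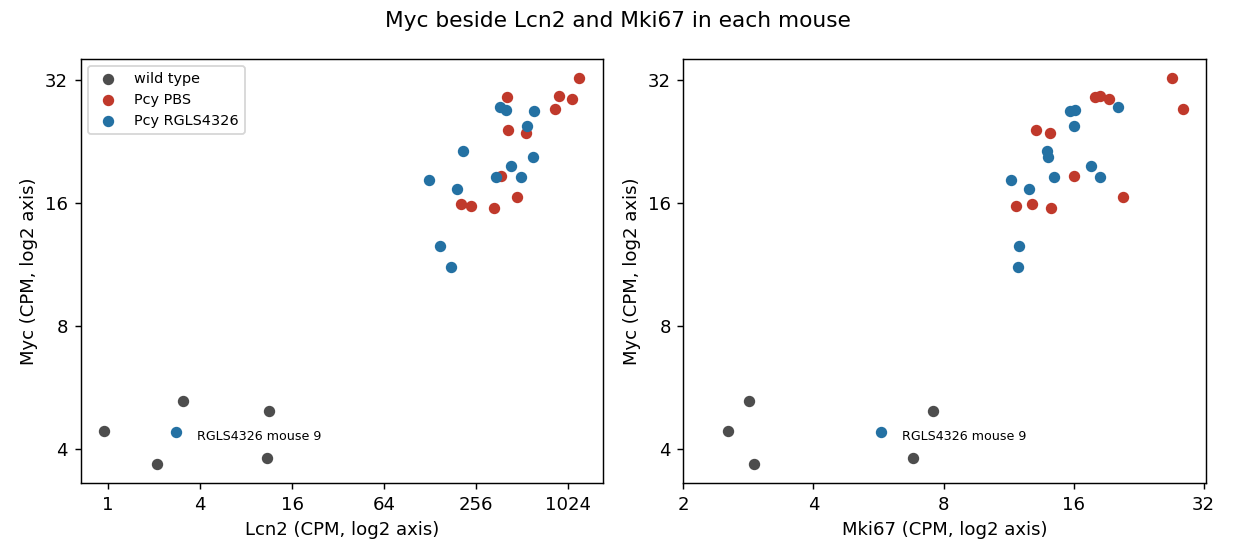
Myc beside Lcn2 (left) and Mki67 (right) in CPM on log2 axes, 1 point per mouse, coloured by group. Within the PBS and RGLS4326 groups Myc is higher where Lcn2 is higher (r = 0.831 and 0.902), and RGLS4326 mouse 9 lies among the wild-type mice.

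The genes whose levels followed each member most closely were sought among 11523 genes over the 31 mice, after the group means were subtracted. For Myc they were Lif (r = 0.940), a cytokine of the interleukin-6 family, Nfkbiz (r = 0.918), a nuclear regulator of NF-kB, and Klf6 (r = 0.914), a zinc finger factor induced by injury. Without mouse 9 these values were 0.876, 0.855 and 0.820. Lif read 1.11 CPM in wild type, 9.74 CPM with PBS and 8.72 CPM with RGLS4326. For the other members the closest genes were less like them. Mxi1 had Ppapdc2 (0.837), Idh2 (0.824), the mitochondrial isocitrate dehydrogenase, and Isca1 (0.822), an iron-sulphur cluster assembly factor. Max had Il10rb (0.716), Mcm4 (0.679) and Apoe (0.676), and Mnt had Tab1 (0.712), Efna1 (0.685) and Nub1 (0.642). Mxd4 had Ctr9 (0.697), Bicc1 (0.690), an RNA-binding protein whose loss causes kidney cysts, and Numa1 (0.665). Mycn had Fam43a (0.691), Erdr1 (0.588) and Asb6 (0.567), and Mxd1 had Primpol (0.606), Ifit3 (0.605) and Colgalt2 (0.593). These points share depth, RNA quality and the makeup of each kidney, and the values are a description of the 31 libraries.

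Of 6 further genes of the Max and Mlx network, 3 rose and 3 fell in PBS kidney, where 37.7% of all genes rose and 36.6% fell. Mycl, the third Myc paralogue, rose from 2.88 ± 0.568 to 8.33 ± 3.52 CPM (log2 fold change 1.54, adjusted p = 3.45e-05), and Mxd3, the Mxd protein of dividing cells, rose by 1.63 (adjusted p = 0.000681) from a level of 0.478 CPM. Mlxip rose by 0.17 (adjusted p = 0.0457). Mlx, the partner of the glucose-sensing Mondo factors, fell by 0.63 on the log2 scale (adjusted p = 5.61e-07), Mlxipl, which encodes the glucose sensor ChREBP, by 0.37 (adjusted p = 0.000273), and Mga, a Max-binding repressor, by 0.33 (adjusted p = 0.000233, all by edgeR). With RGLS4326, where 15.8% of all genes were called, Mlx rose by 0.22 (adjusted p = 0.0331 by edgeR), and the other 5 were not called. Without mouse 9 none of the 6 was called.

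Among 17 cofactors of Myc and Mxd proteins, 7 rose and 3 fell in PBS kidney, where 37.7% of all genes rose and 36.6% fell. Cdk9, the kinase that releases paused polymerase, rose by 0.35 (adjusted p = 1.64e-05), and Ruvbl2, a helicase of the Tip60 complex, by 0.41 (adjusted p = 4.97e-06). Hdac1, the deacetylase of the Sin3 complex, rose by 0.25 (adjusted p = 1.61e-05), whereas Ncor1, a corepressor scaffold, fell by 0.76 (adjusted p = 5.38e-07, all by edgeR). With RGLS4326 only Hdac1 of the 17 was called, lower by 0.11 (log2 fold change -0.11, adjusted p = 0.0327 by edgeR), where 15.8% of all genes were called, and without mouse 9 none was.

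Of 10 genes that act on Myc protein stability, 4 rose and 2 fell in PBS kidney, where 74.3% of all genes were called. The kinases Aurka and Pim1, which can stabilise Myc family proteins, rose by 1.33 (adjusted p = 1.28e-05) and 0.80 (adjusted p = 4.35e-06). Usp28, a deubiquitinase that protects Myc from Fbxw7, rose by 0.42 (adjusted p = 7.71e-05), and Gsk3b, the kinase that marks Myc for Fbxw7, fell by 0.39 (adjusted p = 4.39e-06, all by edgeR). Also past the threshold, and named after their values were seen, were Usp36 (0.14, adjusted p = 0.0153) and the ubiquitin ligase Huwe1 (-0.34, adjusted p = 9.46e-05). With RGLS4326 Usp28 fell by 0.23 (adjusted p = 0.0202 by edgeR), from 13.6 ± 1.24 to 11.6 ± 1.44 CPM, and this call held without mouse 9. The other 9 were not called with treatment, where 15.8% of all genes were.

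Of 30 genes that Myc is known to activate, for ribosome production, nucleotide and polyamine synthesis, translation and the cell cycle, 11 were higher, 10 lower and 9 not called in PBS kidney, where 37.7% of all genes were higher and 36.6% lower. The median log2 fold change of the 30 was -0.055, beside 0.010 over all genes. Odc1, the first enzyme of polyamine synthesis and a classical Myc target, read 1173 ± 256 CPM in wild type and 358 ± 134 CPM with PBS, with every PBS mouse (232 to 732 CPM) below every wild-type mouse (763 to 1468 CPM). It fell by 1.71 on the log2 scale (adjusted p = 3.15e-08). The mitochondrial chaperone Hspd1 fell by 0.89 (adjusted p = 1.63e-07) and the cap-binding factor Eif4e by 0.49 (adjusted p = 2.56e-08), while the cyclin-dependent kinase Cdk4 rose by 0.61 (adjusted p = 9.35e-07, all by edgeR). Nephron markers fell in the same kidneys, and their part in the fall of Odc1, Hspd1 and Eif4e was not tested.

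With RGLS4326 5 of the 30 were called, 3 higher and 2 lower, close to the 15.8% of all genes called in that comparison. Eif4e rose by 0.20 (adjusted p = 0.00870), Hspe1, the partner of Hspd1, by 0.20 (adjusted p = 0.0177) and Hspd1 by 0.29 (adjusted p = 0.0363), whereas Cdk4 fell by 0.21 (adjusted p = 0.0331) and Impdh2, an enzyme of guanine nucleotide synthesis named here after its value was seen, by 0.18 (adjusted p = 0.0367, all by edgeR). Without mouse 9 Eif4e and Hspe1 alone remained. Each of these 5 had moved the opposite way in PBS kidney, and both comparisons share the PBS mice. Nephron markers were called at 4 of 12 genes in the same comparison, with the proximal tubule transporter Slc22a6 (0.35, adjusted p = 0.0272) and Calb1 of the distal tubule, named after its value was seen (0.43, adjusted p = 0.0475), higher, and Aqp2 (-0.56, adjusted p = 0.0265) and Aqp3 (-0.47, adjusted p = 0.0105, all by edgeR) lower. Without mouse 9 Slc22a6, Aqp2 and Aqp3 were called, and the part of these cells in the 5 changes was not tested.

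Of 6 genes that Myc is known to repress, 3 rose and 1 fell in PBS kidney, beside 37.7% and 36.6% of all genes. Cdkn1a, which encodes the cell cycle inhibitor p21, read 5.97 ± 1.29 CPM in wild type and 33.6 ± 12.5 CPM with PBS, with no overlap (log2 fold change 2.49, adjusted p = 1.60e-07). Cdkn2b, which encodes p15, rose by 1.37 (adjusted p = 0.000167) and Ndrg1 by 0.49 (adjusted p = 0.0226). Ndrg2 fell by 0.67 (adjusted p = 0.000126), and Cdkn1b (-0.087, adjusted p = 0.210) and Gadd45a (0.31, adjusted p = 0.212) were not called. None of the 6 passed with RGLS4326, where 15.8% of all genes did; the largest differences were Cdkn2b at -0.55 (adjusted p = 0.0533) and Cdkn1a at -0.48 (adjusted p = 0.0870, all by edgeR). Proliferation markers were higher at 9 of 10 genes in the same PBS kidneys, Cdk1 by 2.49 (adjusted p = 3.69e-07), Mki67 by 1.98 (adjusted p = 2.31e-07), Top2a by 2.09, Mcm5 by 0.99 and Mcm2 by 0.62, and 1 of 10 was called lower with RGLS4326, Ccnb1 (-0.53, adjusted p = 0.0447 by edgeR), where 6.66% of all genes were lower. The exception in PBS kidney, named after its value was seen, was Mcm6 (-1.61, adjusted p = 6.86e-06), and without mouse 9 it was Mcm6 and not Ccnb1 that was called lower with RGLS4326.

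**Figure D5:**
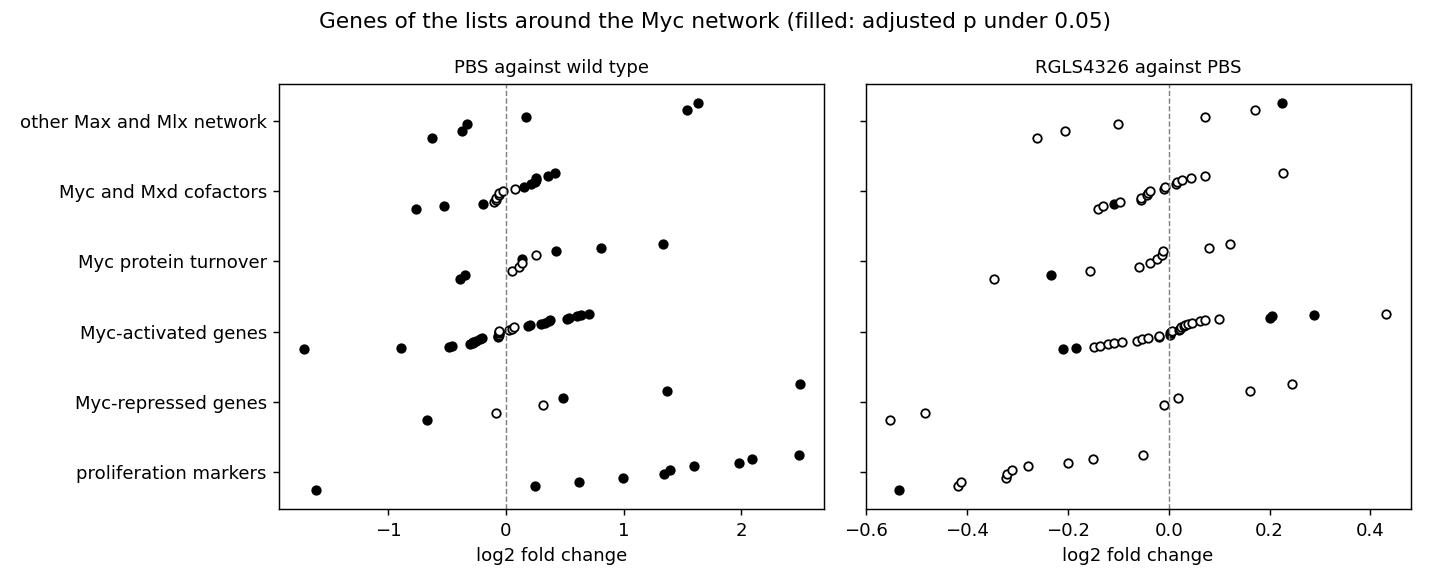
Log2 fold changes of the genes in 6 lists around the Myc network, 1 point per gene, for PBS against wild type (left) and RGLS4326 against PBS (right), filled where the adjusted p was under 0.05; the horizontal scales differ. In the left panel 11 Myc-activated genes are called higher and 10 lower, and in the right panel 3 are higher and 2 lower.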

How the data were processed

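Whole-kidney poly(A) RNA of 31 mice was sequenced as stranded paired reads of 75 bases. Per the labels and the study's methods, the authors trimmed reads with Trim Galore, mapped them with STAR to GRCm38 and counted unique reads per gene with HTSeq 0.6.1; the deposited values are raw counts. Rows naming no gene (26.9% to 31.1% of each library) were left out of library sizes and tests. Groups and mouse numbers came from the labels.

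Genes passing filterByExpr were fitted in edgeR 4.0.16 (R 4.3.3) with TMM scaling and 1 coefficient per group over all 31 mice. SE is the absolute log2 fold change over the square root of F, and intervals use 28 residual degrees of freedom; both are approximate. DESeq2 1.42.0 was an alternative. The fit was tested on simulated data. Correlations used 100000 resamples. All other steps ran in Python 3.11.15 (matplotlib 3.10.9, pandas 2.3.3, scipy 1.17.1, numpy 2.4.6). Positions and exon lengths came from GENCODE annotation of GRCm38, and sequences from RefSeq or that genome.

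The members and lists were chosen with earlier results of these data known. Named were all members, in each list the 3 genes with the smallest p in each of the first 2 comparisons, all genes of lists of 6 or fewer, Lcn2, Mki67 and the 3 genes most like each member among those averaging at least 5 CPM. Other lists were markers of nephron, injury, leukocytes (9 of 10 found), fibroblasts, proliferation and liver. Liver markers fell at 3 of 5 genes in PBS kidney (Alb, Apoa2, Ttr; 36.6% of all genes fell) and rose at 2 of 5 with RGLS4326 (Alb, Apoa2; 9.15% of all genes rose), at none without mouse 9; Apoa1 and Serpina1a were called in neither comparison. Same-numbered mice are different animals. The edgeR p-values set a group difference against the spread between mice, and those of the correlations come from permuted pairings of mice.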

Additional observations from a re-analysis of the deposited data

How the results depend on the processing

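Alternatives were DESeq2, RLE and upper-quartile scaling, no filter, only the 2 groups compared, library set as a covariate, each set alone, a replicate block and leaving out each mouse. Myc kept its direction and its call against wild type in all of them with PBS mice; with RGLS4326 mice it missed the threshold in set 2 alone (1.88, adjusted p = 0.119). The count of 3 members called between PBS and wild type was 1 with the size threshold, 5 with only the 2 groups compared (Max at 0.096 and Mxd1 at 0.15 added), 1 in set 1 and 1 in set 2. The count of 1 with RGLS4326 against PBS was 0 with the size threshold, 0 with the replicate block and 0 in set 1, set 2 and set 3 alone. The count of 3 for RGLS4326 against wild type was 1 with the size threshold and 0 in set 2. Sets alone have fewer mice. Without single mice the counts ran from 2 to 4, 0 to 1 and 2 to 3.

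Directions reversed only where the member had not been called. With upper-quartile scaling Mnt was at 0.031 against wild type with PBS, Mxi1 at -0.016 with RGLS4326 against PBS and Mycn at 0.067 with RGLS4326 against wild type. Mycn in that last comparison was 0.020 with the set covariate, 0.083 with the replicate block and 0.11 in set 2. In set 1, Mycn was -0.31 with PBS against wild type, Myc 0.15, Mycn 0.0064, Mxi1 -0.016 and Mnt 0.080 with RGLS4326 against PBS, and Mnt 0.0093 with RGLS4326 against wild type. With RGLS4326 against PBS, set 2 gave Max -0.042 and Mnt 0.059, and set 3 gave Mxi1 -0.022. Without single mice, RGLS4326 against PBS ranged from -0.0038 to 0.026 for Mxi1 and from -0.029 to 0.013 for Mnt, and RGLS4326 against wild type from -0.15 to 0.11 for Mycn and from -0.0010 to 0.030 for Mxd4. Upper-quartile scaling, which moved the median of all genes to 0.13 with PBS against wild type, called Max (0.19) and Mxd1 (0.24) there and Mxi1 in neither comparison with wild type.

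Same-numbered mice did not deviate together (mean r = -0.055 over 12 PBS and RGLS4326 pairs, with 2 closest to their own number), so the replicate block was not used above. Under the replicate block Mxd4 was -0.093 with RGLS4326 (adjusted p = 0.115), and 303 genes in all were called with RGLS4326 against PBS in place of 2402; the cause was not tested.

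A pseudocount of 5 put 4 correlations of Myc past the threshold: with Mcm7 (0.601) and Mki67 (0.615) in PBS mice, and with Mir17hg (0.526) and Mcm7 (0.592) in RGLS4326 mice. Leaving out the 2 farthest mice did so for Mir17hg in PBS mice (-0.708) and Mcm7 in RGLS4326 mice (0.741) and ended the calls for Mki67 in RGLS4326 mice (r 0.620, Spearman's rho 0.643) and for Spearman's rho with Lcn2 in both groups (0.758 and 0.608). Without RGLS4326 mouse 9, added for the lists and the levels per length after seeing the data, calls with RGLS4326 went from 5 to 2 of the Myc-activated genes. Mycn rested on the fewest reads, 42 in 1 mouse.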
